A study of Danio rerio with 6 samples.

Results

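Most complement and coagulation proteins of plasma are made and secreted by hepatocytes. Their transcripts were followed in liver RNA sequencing of scd mutant and wild-type (WT) zebrafish. The genes were taken by symbol from a fixed list of 40 plasma complement, coagulation and fibrinolysis genes. Of these, 39 were found among the 30954 named genes of the deposited count table, and cfi was not analysed here. All 39 passed the filter on low counts, which kept 12889 genes.

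The tested fish carried a CRISPR-Cas9 knockout of scd, the gene for stearoyl-CoA desaturase, and gave 3 liver libraries. The WT fish gave the other 3. Both genotypes were kept at a water temperature of 28 °C. The labels name no strain, sex, age or mutant allele. They also do not say whether a library came from 1 fish or a pool, so p-values measure only the spread between these libraries, which may be technical.

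Complement is a cascade of plasma proteases and pore-forming proteins. Lectins such as mannose-binding lectin, with their proteases, or spontaneous turnover with factor B, lead to cleavage of C3. C5 to C9 then build the membrane attack complex. Coagulation starts when tissue factor meets factor VII, runs through factors IX, X and V to thrombin, and ends with fibrin. Antithrombin, heparin cofactor II and protein C restrain it, and plasmin dissolves the clot. In bulk liver RNA, fewer hepatocytes and less transcript per hepatocyte cannot be told apart.

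Levels below are counts per 1e6 counts after TMM scaling (trimmed mean of M-values), written CPM. Gene lengths were not used, so a level is compared between libraries and not between genes. Named counts per library ran from 22525340 to 25852954. Vitellogenin, the egg yolk precursor, took 57.3%, 57.3% and 0.04335% of them in mutant libraries 1 to 3, and 44.1%, 51.0% and 49.8% in WT libraries 1 to 3. The TMM factor was 0.632, 1.07 and 2.95 in the mutant libraries, and 0.926, 0.755 and 0.718 in the WT libraries. Mutant library 3, with almost no vitellogenin, stood apart. The targeted gene scd was at 691, 110.3 and 56.6 CPM in mutant libraries 1 to 3 and at 30.3, 18.1 and 429.9 CPM in WT libraries 1 to 3 (log2 fold change 0.84 ± 1.44, SE, edgeR, adjusted p = 0.786). Its reads did not separate the genotypes, so the genotype of each library rests on its label alone.

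Markers of other cells also differed between libraries. The 15 erythrocyte genes found of 15 summed to between 214 and 2291 CPM in mutant libraries, highest in library 3, and between 229.7 and 371 CPM in WT libraries, with hbae1.1, hbbe1.1 and hbbe3 at 0 counts throughout. The 22 oocyte genes found of 23 summed to 369.9, 1.44 and 0.342 CPM in mutant libraries 1 to 3 and to 223, 264 and 3.31 CPM in WT libraries 1 to 3, with zpld1a at 0. The 10 thrombocyte genes found of 11 summed to 6.08 to 44.0 CPM in mutant and 10.4 to 12.2 CPM in WT libraries. For 17 of 18 macrophage and neutrophil genes the sums were 28.4 to 147 CPM in mutant and 42.2 to 135 CPM in WT libraries. The 22 exocrine pancreas genes found of 27 summed to 547 to 825 CPM in mutant and 229.6 to 3060 CPM in WT libraries. The 12 endothelial genes summed to 47.0 to 62.0 CPM in mutant and 66.9 to 78.8 CPM in WT libraries, and 13 of 14 biliary and stellate genes to 618 to 2292 and 663 to 1162 CPM. What these cells contribute to the values below was not tested. Hepatocyte markers were abundant in every library, with sums over 21 of 22 genes of 47765 to 115504 CPM in mutant and 82299.5 to 84774 CPM in WT libraries.

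Transcripts of the 39 genes together made up 1.92%, 1.37% and 6.34% of named counts in mutant libraries 1 to 3 and 2.41%, 1.95% and 2.705% in WT libraries 1 to 3. Of the counts outside vitellogenin they made up 4.49%, 3.22% and 6.34% in the mutant libraries and 4.31%, 3.98% and 5.39% in the WT libraries. On the CPM scale the sum was 30339, 12894 and 21465 in mutant libraries and 25983, 25826 and 37662 in WT libraries. The genotypes overlapped on all of these scales. Mutant library 2 was the lowest on each.

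By edgeR, no gene of the set was called in the comparison of mutant with WT. The count was 0 higher and 0 lower at an adjusted p under 0.05 (edgeR quasi-likelihood test), where 0.116% and 0.124% of all genes tested were called higher and lower (31 genes, 0.241%). At an unadjusted p under 0.05, 1 gene was higher (2.56%) and 5 were lower (12.8%), against 10.8% and 8.29% of all genes. The higher one was mbl2 and the lower ones were c3b.1, c3b.2, c7b, f13b and vtna. The DESeq2 Wald test called 1 higher, mbl2, and 3 lower, c3b.1, c7b and f13b, where it called 4.07% and 4.34% of all genes. With limma-voom, 0 were called in either direction, against 0.0776% and 0.14% of all genes, and 1 (2.56%) and 7 (17.9%) of them passed without adjustment, above and below WT, as did 10.5% and 9.98% of all genes. The smallest adjusted p in the set was 0.177 by edgeR, for f13b.

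Taken as a list, 33 of the 39 log2 fold changes were negative and 6 positive, with a median of -0.52 beside 0.04 for all genes tested. The size of this offset rested on single libraries. The list median was -0.83 without mutant library 1, -0.24 without mutant library 2 and -0.31 without WT library 3. It was -0.54 without mutant library 3. The sign also rested on scaling: with total counts the list median was 0.47 where that of all genes was 0.97, and with total counts outside vitellogenin it was 0.00 where that of all genes was 0.62. Relative to the median of all genes, the list stood at -0.56 under TMM, -0.51 with total counts and -0.62 with total counts outside vitellogenin. The values below are under TMM unless stated.

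**Figure D1:**
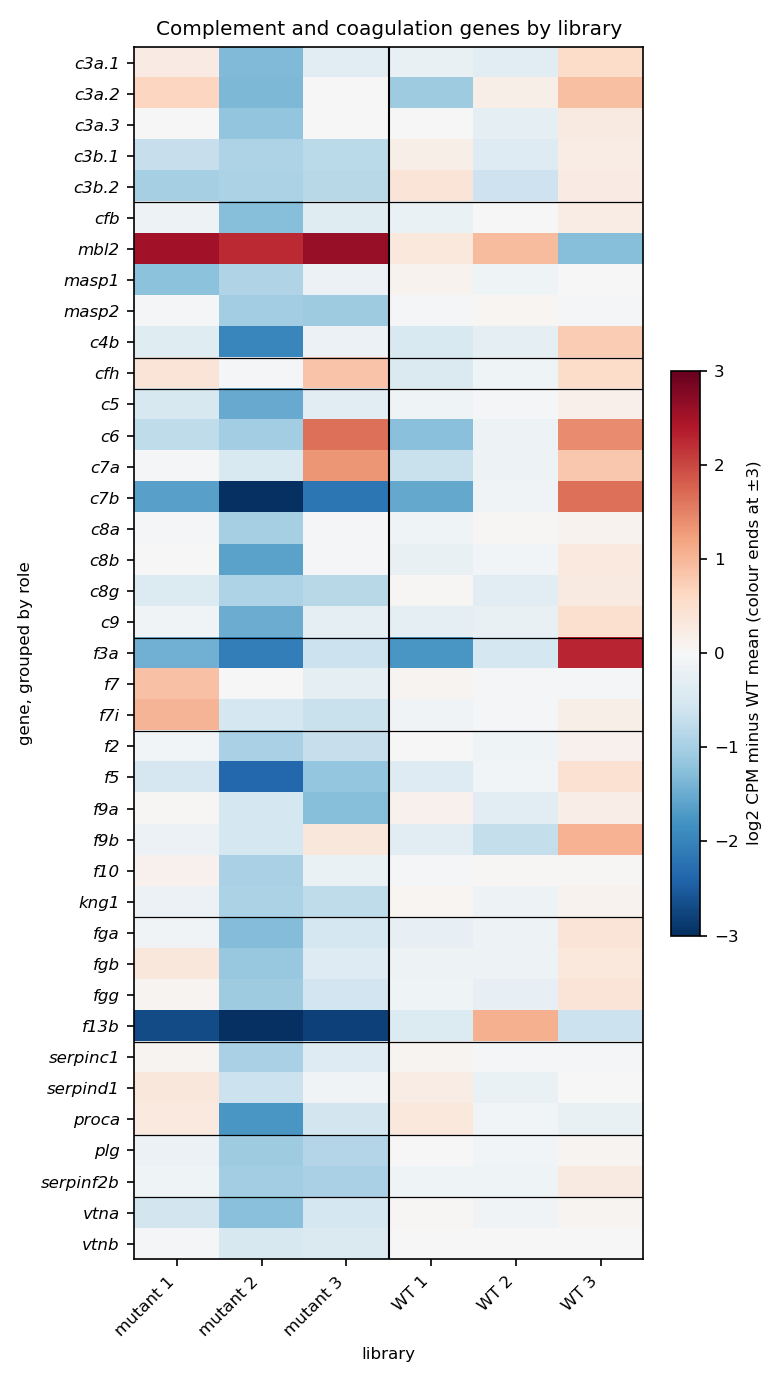
Log2 CPM of each of the 39 genes minus its mean over the 3 WT libraries, with genes in rows grouped by role and libraries in columns, mutant at the left. Blue marks values below the WT mean and red above. Mutant library 2 is blue in most rows, WT library 3 is red in most, and mutant library 1 is pale in most, with c7b, f13b, f3a and mbl2 among the exceptions. Colours end at a difference of 3.

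The libraries were ordered much alike for most of the set. On the TMM scale, mutant library 2 held the lowest level of 28 of the 39 genes and the highest of 0. WT library 3 held the highest level of 24. Which library was highest rested on this scaling. Scaled to the counts outside vitellogenin, most of the 39 genes were highest in mutant library 3. Only c7b, c8g, f3a, f5 and serpinf2b were then highest in WT library 3. The deviations that follow are on the TMM scale. Relative to the WT mean, the median over the set was -0.09, -1.05 and -0.38 on the log2 scale in mutant libraries 1 to 3, and -0.12, -0.13 and 0.23 in WT libraries 1 to 3. The number of genes below their WT mean was 25, 37 and 33 in the mutant libraries and 27, 33 and 7 in the WT libraries. The median of mutant library 1 thus lay within the range of the WT medians, while many single genes, such as c3b.1 and f7, lay outside their WT range. The 19 hepatocyte markers that are not in the coagulation lists had median deviations of 0.32, -0.85 and -0.75 in mutant libraries 1 to 3 and 0.06, 0.01 and -0.09 in WT libraries 1 to 3. They were also lowest in mutant library 2. Unlike the set, they were nearly as low in mutant library 3, and WT library 3 was their lowest WT library.

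For 13 genes every mutant library was below every WT library, and for 1 every mutant library was above. These are 33.3% and 2.56% of the set, where 12.8% and 15.1% of all genes tested were separated in these directions. The 13 were c3b.1, c3b.2, masp1, masp2, c5, c7b, c8g, f5, kng1, f13b, plg, vtna and vtnb, and the 1 above was mbl2. Without mutant library 3 the counts were 13 lower and 1 higher, where 18.4% and 19.9% of all genes were separated. Without mutant library 1, 26 were lower and 1 higher, where 22.4% and 22.9% of all genes were separated. Scaled to the counts outside vitellogenin, 1 gene was lower, f13b, and 3 were higher, mbl2, f7 and f7i, where 5.13% of all genes were lower and 22% higher. Of the 39 genes, f13b and mbl2 were separated in the same direction on both scales. Both had few counts. The gene mbl2 passed the low-count filter through the mutant libraries, where it was high, which favoured its separation. With 0 counts in mutant library 2, f13b needed at least 1 WT library to pass, which may have favoured its separation.

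**Figure D2:**
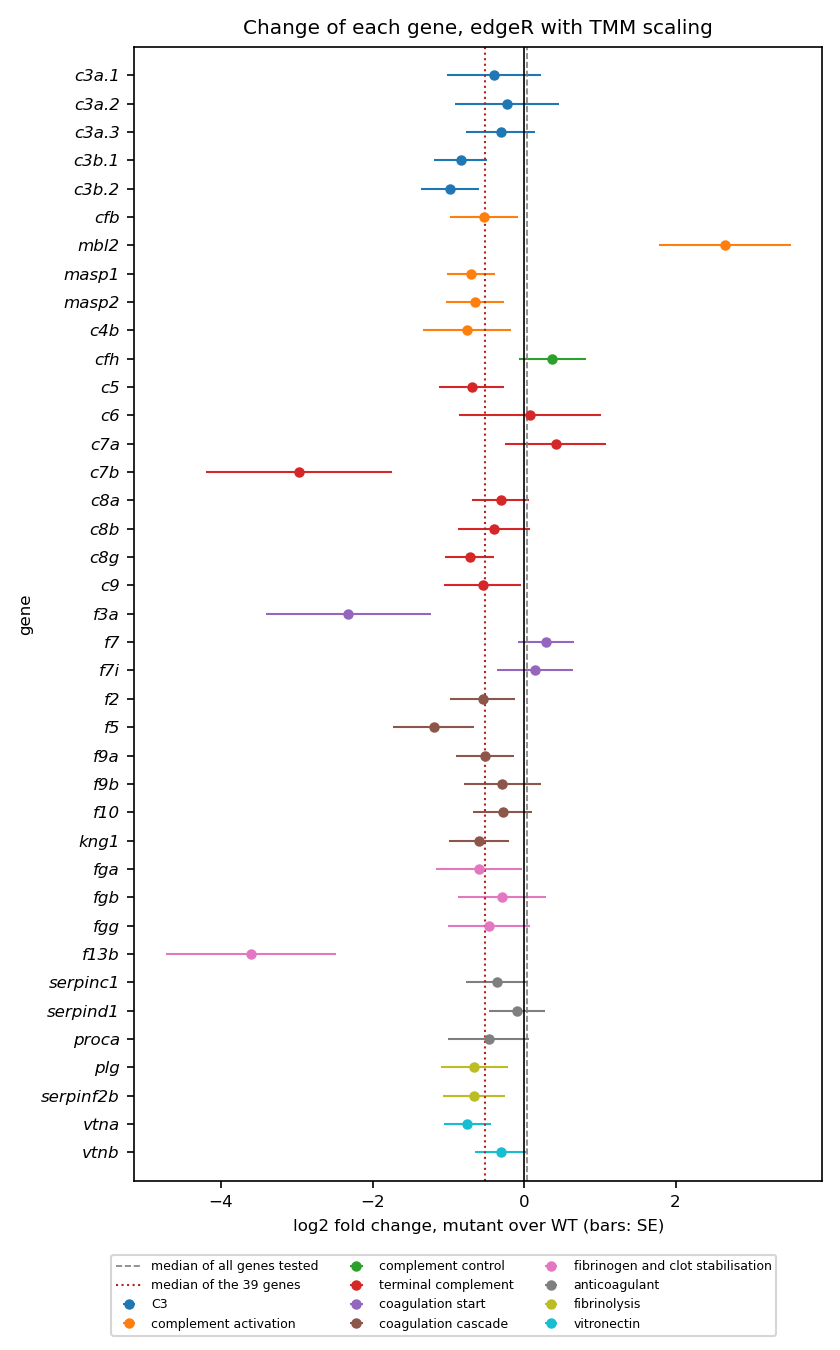
Log2 fold change of mutant over WT for each of the 39 genes with its standard error, coloured by role. The dashed line marks the median of all genes tested (0.04) and the dotted line that of the 39 genes (-0.52). Most points lie between -1 and 0, with f13b, c7b and f3a far to the left and mbl2 far to the right.

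C3 is the protein on which all complement pathways meet. Zebrafish carry several C3 genes, and 5 belong to the set. The RefSeq gene order of assembly GRCz12tu, another build than that of the counts, was used here for order only. In it c3a.2 and c3a.3 are neighbours, 3 genes lie between c3a.1 and c3a.2, and c3b.1 and c3b.2 are neighbours elsewhere. Since these are related copies and no source used here says how reads aligning to several places were treated, their separate values are uncertain.

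The gene c3a.1, with the most counts of these (not corrected for length), had 5282, 1776 and 3533 CPM in mutant libraries 1 to 3 and 3822, 3574 and 6515 CPM in WT libraries 1 to 3. The genotypes overlapped, with a log2 fold change of -0.39 ± 0.62 (SE, edgeR, adjusted p = 0.764). The nearby c3a.2 and c3a.3 had log2 fold changes of -0.23 and -0.31 and overlapped as well. The spread of c3a.2 was wide within WT, at 393, 935 and 1530 CPM, and its log2 fold change was 0.14 without mutant library 2 and 0.28 without WT library 3.

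Both c3b genes were below WT in every mutant library. The level of c3b.1 was 212, 182 and 195 CPM in mutant libraries and 387, 262 and 404 CPM in WT libraries, a log2 fold change of -0.84 ± 0.35 (SE, edgeR, adjusted p = 0.251). DESeq2 called it, at -0.87 with an adjusted p = 0.0496. The level of c3b.2 was 155, 161 and 174 CPM in mutant libraries and 404, 200.1 and 364 CPM in WT libraries, a log2 fold change of -0.98 ± 0.38 (SE, edgeR, adjusted p = 0.228). The mutant libraries lay close together for both genes, and WT library 2 was the WT library nearest to them. With total counts the log2 fold change of c3b.1 was 0.10, where the median of all genes was 0.97.

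Complement activation is represented by factor B (cfb), the protease of the alternative pathway, by mannose-binding lectin (mbl2) with its proteases masp1 and masp2, and by c4b, a C4 gene. Factor B had 838, 381 and 716 CPM in mutant libraries and 799, 913 and 1082 CPM in WT libraries. Mutant library 1 lay within the WT range, and the log2 fold change was -0.53 ± 0.45 (SE, edgeR, adjusted p = 0.547).

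The lectin mbl2 was counted rarely, with 15, 18 and 69 counts in mutant libraries and 3, 5 and 0 in WT libraries. As levels these are 0.917, 0.739 and 0.982 CPM in mutant libraries, and 0.144, 0.261 and 0 CPM in WT libraries. On this scale the 3 mutant values were close together and above all WT values. The WT counts of mbl2 were too low for the filter, so it was kept through the mutant libraries, where it was high. Its separation was therefore favoured by the filter. A count of 0 in WT library 3 allows up to 0.168 CPM (3 counts, counting error only). The log2 fold change was 2.65 ± 0.87 (SE, edgeR, adjusted p = 0.180), and DESeq2 called it at 2.66 (adjusted p = 0.0445). It was the member with the largest positive change. In the alternative runs where it passed the filter, its log2 fold change was 2.09 to 3.63. These runs reuse the same few counts, so their shared sign is no separate support.

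The proteases pointed the other way. The level of masp1 was 12.7, 15.98 and 26.4 CPM in mutant libraries and 32.3, 27.2 and 30.1 CPM in WT libraries (log2 fold change -0.70, edgeR adjusted p = 0.287). That of masp2 was 197, 100.6 and 98.2 CPM in mutant libraries and 201, 215.5 and 203 CPM in WT libraries (-0.65, edgeR adjusted p = 0.395). Mutant library 1 was near WT for masp2 and farthest from WT for masp1. The C4 gene c4b overlapped, with a log2 fold change of -0.76 ± 0.58 (SE). These 3 genes are outside the naming rule and were chosen after their values were seen.

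The complement inhibitor factor H (cfh), which holds C3 activation in check on host surfaces, was among the few genes above zero. It had 431, 317 and 597 CPM in mutant libraries and 247, 303 and 491 CPM in WT libraries. The genotypes overlapped through WT library 3, and the log2 fold change was 0.37 ± 0.44 (SE, edgeR, adjusted p = 0.680). Set against factor B within the same library, a ratio that does not depend on scaling, cfh was at 0.515, 0.834 and 0.834 in mutant libraries and at 0.309, 0.332 and 0.454 in WT libraries. Every mutant ratio was above every WT ratio. The group means differed by 0.98 on the log2 scale (-0.49 ± 0.40 and -1.48 ± 0.29, SD, n = 3 each). This ratio was chosen after the values were seen and was not tested.

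The terminal components build the pore. C5 (c5), which starts the assembly, was at 322, 155 and 353 CPM in mutant libraries and 409.7, 436 and 496 CPM in WT libraries, separated but not called (log2 fold change -0.69 ± 0.42, SE, edgeR, adjusted p = 0.410). C9, which forms the ring of the pore, was at 814, 311 and 719.7 CPM in mutant libraries and 729, 747 and 1221 CPM in WT libraries, a log2 fold change of -0.55 ± 0.51 (SE, edgeR, adjusted p = 0.582).

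The 3 chains of C8 are made from separate genes, of which c8a and c8b are neighbours. The level of c8a was 236, 122 and 236 CPM in mutant libraries and 223, 249 and 264 CPM in WT libraries. That of c8b was 163, 53.8 and 161 CPM in mutant libraries and 142, 155 and 202 CPM in WT libraries. Both overlapped, and mutant library 2 was the low one. The level of c8g was 122, 86.1 and 91.6 CPM in mutant libraries and 168, 132 and 195 CPM in WT libraries, without overlap. The log2 fold changes were -0.31, -0.40 and -0.72 for c8a, c8b and c8g, with edgeR adjusted p between 0.280 and 0.689. Within a library, c8g to c8a stood at 0.519, 0.706 and 0.389 in mutant libraries and 0.753, 0.529 and 0.738 in WT libraries, and c8b to c8a at 0.691, 0.441 and 0.685 in mutant libraries and 0.636, 0.623 and 0.764 in WT libraries. Both ratios overlapped.

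Among the genes with counts in every library, c7b, a C7 gene, had the widest range. It had 76.1, 3.61 and 52.6 CPM in mutant libraries and 81.2, 219 and 740.01 CPM in WT libraries, a 205-fold range over the 6 libraries. The genotypes were separated only by the narrow step between mutant library 1 and WT library 1. The log2 fold change was -2.97 ± 1.23 (SE, edgeR, adjusted p = 0.257) and was -1.78 without WT library 3. DESeq2 called it at -3.01 (adjusted p = 0.0282). The other C7 gene, c7a, had under 2.5 CPM in every library and a log2 fold change of 0.42, which was -0.40 without mutant library 3. The C6 gene c6, which is outside the naming rule, was at 11.3, 9.201 and 59.9 CPM in mutant libraries and 7.91, 17.0 and 51.4 CPM in WT libraries. Mutant library 3 and WT library 3 were the high ones, and the genotypes overlapped. Its log2 fold change of 0.08 was -1.34 without mutant library 3 and 1.08 without WT library 3.

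**Figure D3:**
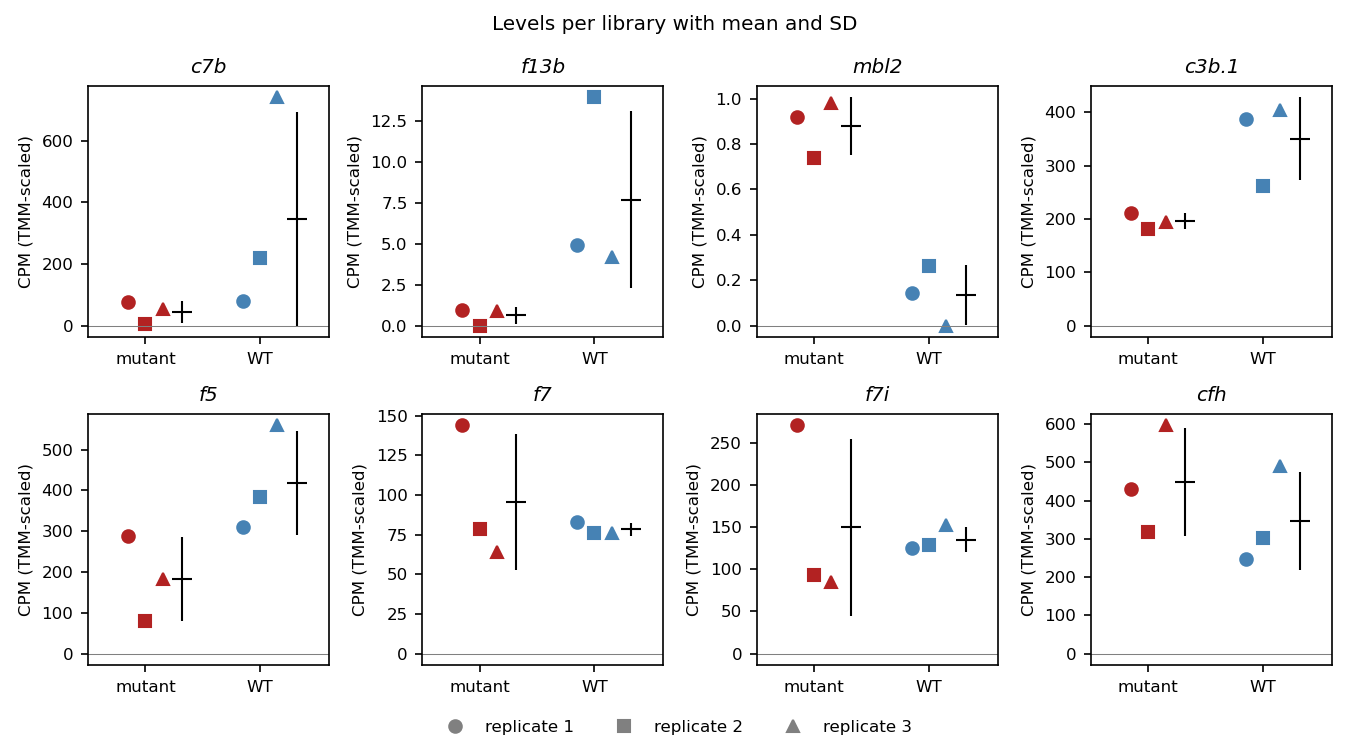
TMM-scaled CPM of 8 genes in each library, with mutant left of WT, a marker shape for each replicate number and a bar for the mean and SD of 3 libraries. Each panel has its own linear axis. In c7b, WT library 3 lies far above the rest, f13b and mbl2 are separated by genotype, and mutant library 1 is the high one for f7 and f7i.

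Coagulation is started by tissue factor (f3a), a membrane receptor, and factor VII (f7). The gene f7i encodes a factor VII homologue described in zebrafish as lacking protease activity. Tissue factor was rare except in WT library 3, with 0.550, 0.329 and 1.01 CPM in mutant libraries and 0.431, 1.098 and 8.25 CPM in WT libraries (log2 fold change -2.32, edgeR adjusted p = 0.301, chosen after its values were seen). Without WT library 3 the log2 fold change was -0.26.

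Factor VII had 144, 78.5 and 64.02 CPM in mutant libraries and 83.1, 76.0 and 75.7 CPM in WT libraries. The neighbouring f7i had 271, 93.1 and 84.6 CPM in mutant libraries and 125, 128 and 152 CPM in WT libraries. Mutant library 1 was the highest of the 6 for both, while mutant libraries 2 and 3 were near or below WT. Their log2 fold changes were 0.29 ± 0.37 and 0.15 ± 0.50 (SE, edgeR, adjusted p = 0.705 and 0.897), and both turned negative without mutant library 1, at -0.16 and -0.62. Per 1e6 counts outside vitellogenin, however, f7 stood at 213, 196 and 189 in mutant libraries and 138, 117 and 108 in WT libraries. On that scale f7i stood at 401, 232 and 250.02 in mutant libraries and 207, 197 and 217 in WT libraries. Both were then above WT in all 3 mutant libraries, as were 22% of all genes.

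The third gene of this neighbourhood, factor X (f10), is the protease that converts prothrombin. It had 358, 167 and 285 CPM in mutant libraries and 313, 334 and 339 CPM in WT libraries, a log2 fold change of -0.28. The ratio of f7 to f10 within a library was 0.402, 0.470 and 0.2245 in mutant libraries and 0.2655, 0.2275 and 0.2237 in WT libraries, so that mutant libraries 1 and 2 were above all WT libraries and mutant library 3 was within them. The ratio of f7i to f7 was 1.88, 1.19 and 1.32 in mutant libraries and 1.503, 1.68 and 2.004 in WT libraries, and overlapped.

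Prothrombin (f2), the precursor of thrombin, had 1011, 549.8 and 663 CPM in mutant libraries and 1066, 993 and 1186 CPM in WT libraries, a log2 fold change of -0.55 ± 0.43 (SE, edgeR, adjusted p = 0.514). Factor V (f5), the cofactor that speeds prothrombin conversion, had 287, 79.2 and 182 CPM in mutant libraries and 311, 383 and 559.8 CPM in WT libraries. All mutant values were below WT, and the log2 fold change was -1.19 ± 0.54 (SE, edgeR, adjusted p = 0.281). The factor IX genes f9a and f9b overlapped, at -0.52 and -0.29, and f9b was at 0.41 without WT library 3. Kininogen (kng1), the source of bradykinin in mammals, was separated, with a log2 fold change of -0.60 ± 0.40 (SE).

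Fibrinogen, the clot protein, is assembled from 3 chains. The alpha chain fga had 4528, 1967 and 3355 CPM in mutant libraries and 4107, 4358 and 6355 CPM in WT libraries. The beta chain fgb had 4973, 1797 and 3029 CPM in mutant libraries and 3529.5, 3538 and 4903 CPM in WT libraries. The gamma chain fgg had 3569, 1597 and 2263 CPM in mutant libraries and 3086, 2807 and 4346 CPM in WT libraries. In all 3 chains mutant library 1 lay inside or just above the WT range and mutant library 2 was lowest. The log2 fold changes of -0.59 ± 0.57, -0.29 ± 0.58 and -0.46 ± 0.54 for fga, fgb and fgg were no larger than about their errors (SE, edgeR, adjusted p between 0.597 and 0.819).

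The ratio of fgb to fga counts within a library was 1.098, 0.914 and 0.903 in mutant libraries and 0.8595, 0.812 and 0.7715 in WT libraries. Every mutant ratio was above every WT ratio. The group means differed by 0.25 on the log2 scale (-0.05 ± 0.16 and -0.30 ± 0.08, SD, n = 3 each). The ratio of fgg to fga was 0.788, 0.812 and 0.674 in mutant libraries and 0.751, 0.644 and 0.684 in WT libraries, and overlapped. In the RefSeq order 1 gene lies between fgb and fga. Of the 14 pairs of genes compared in this way, 2 did not overlap between genotypes, fgb to fga and cfh to cfb. Of the pairs, 9 were added after the values were seen. No share over all pairs of genes was computed, and 27.8% of single genes tested were separated in CPM in either direction.

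**Figure D4:**
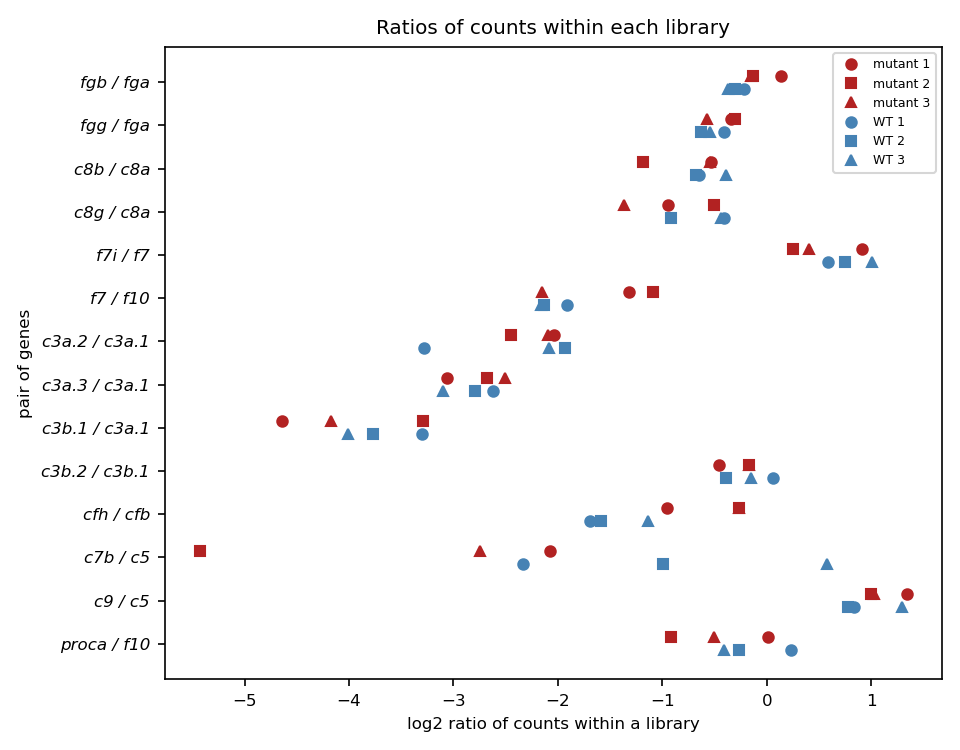
Log2 ratio of the counts of 2 genes within each library for 14 pairs, with mutant libraries in red above WT libraries in blue. The ratios fgb to fga and cfh to cfb lie higher in all mutant libraries, and c7b to c5 has the widest range.

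The gene f13b had the most negative change. In mammals its product carries factor XIII, the enzyme that crosslinks fibrin. It had 16, 0 and 63 counts in mutant libraries and 103, 266 and 75 counts in WT libraries. As levels these are 0.979, 0 and 0.897 CPM in mutant libraries and 4.94, 13.9 and 4.21 CPM in WT libraries, with every mutant library below every WT library. A count of 0 in mutant library 2 allows up to 0.123 CPM (3 counts, counting error only). With that 0, f13b needed at least 1 WT library, where it was high, to pass the low-count filter. The filter may therefore have favoured its separation. The log2 fold change was -3.60 ± 1.13 (SE, edgeR, adjusted p = 0.177), and DESeq2 called it at -3.66 (adjusted p = 0.00448). It ranged from -4.07 to -2.88 when each library was left out in turn.

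Among the inhibitors of coagulation, antithrombin (serpinc1) had 621, 299.7 and 452 CPM in mutant libraries and 625, 570.3 and 567 CPM in WT libraries, a log2 fold change of -0.36 ± 0.41 (SE, edgeR, adjusted p = 0.664). Mutant library 1 lay within the WT range and mutant library 2 was lowest. Heparin cofactor II (serpind1) was at -0.09 ± 0.37, and at 0.11 without mutant library 2. Protein C (proca), which inactivates factor V in mammals, overlapped at -0.47 ± 0.53, and its lowest library was mutant library 2 at 88.3 CPM.

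Plasminogen (plg), the precursor of the clot-dissolving protease plasmin, had 1253, 680.3 and 771 CPM in mutant libraries and 1413, 1341 and 1504 CPM in WT libraries. The WT values lay close together and above all mutant values, but the test did not call the difference (log2 fold change -0.65 ± 0.44, SE, edgeR, adjusted p = 0.449). Its inhibitor antiplasmin (serpinf2b) stood at -0.67 ± 0.41 (SE) and overlapped.

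Vitronectin binds the membrane attack complex and the plasminogen activator inhibitor. Both vitronectin genes were separated. The level of vtnb was 370.5, 274 and 284 CPM in mutant libraries and 382, 379 and 389 CPM in WT libraries, and its 1.42-fold range over the 6 libraries was the narrowest of the set (log2 fold change -0.31 ± 0.34, SE, edgeR, adjusted p = 0.650). The level of vtna was 86.4, 53.3 and 88.7 CPM in mutant libraries and 131, 118 and 135 CPM in WT libraries (-0.75 ± 0.32, SE, edgeR, adjusted p = 0.259). Over the whole set, the range over libraries was under 4-fold for 29 genes and over 10-fold for 2, c7b and f3a. A further 2, mbl2 and f13b, had a library at 0.

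**Figure D5:**
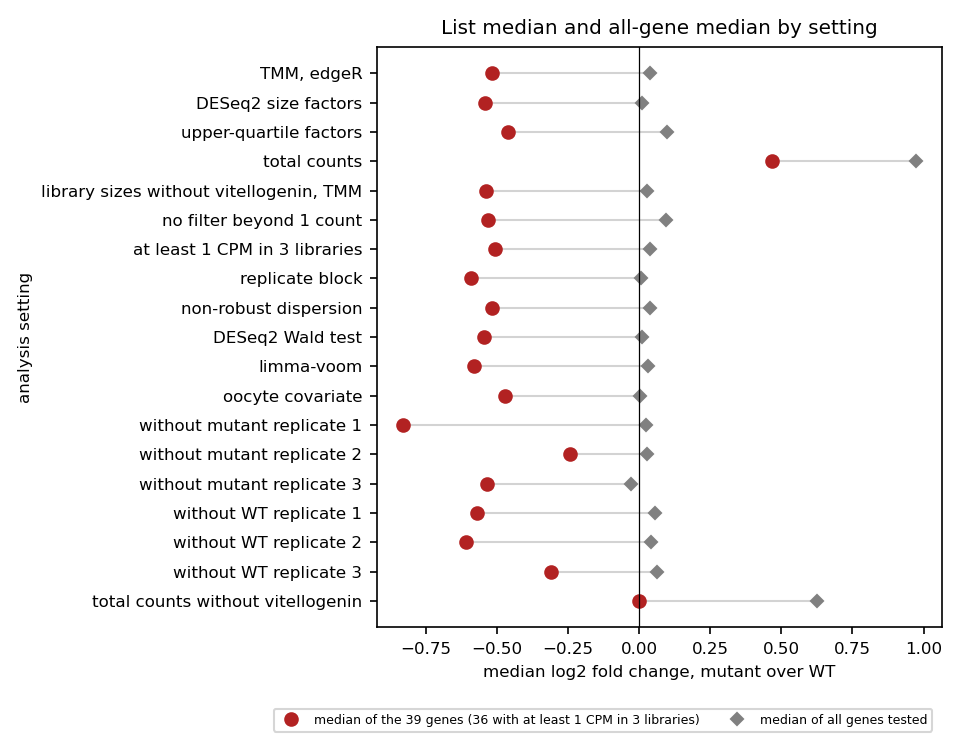
Median log2 fold change of the set (red) and of all genes tested (grey) in the main analysis at the top and 18 alternatives, with a line joining each pair. The red point lies left of the grey one in every alternative shown, between -0.85 and -0.27 from it, while both shift to the right with total counts. A change of scaling moves both medians nearly together. All alternatives reuse the same libraries, so their agreement is no separate support.

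Other genes of the same pathways gave no call in the main edgeR test either. Of a wider list, 22 of 34 complement genes and 32 of 48 coagulation and fibrinolysis genes were found, and 47 passed the filter. The edgeR test called 0 higher and 0 lower, edgeR with total counts 3 higher and 0 lower (where 3.08% and 0.582% of all genes were called), limma-voom likewise 0, and DESeq2 1 higher, anxa2a, and 2 lower, c4 and serpina10a. DESeq2 called 4.07% and 4.34% of all genes in these directions. At an unadjusted p under 0.05 by edgeR, 4 were higher (8.51%) and 7 lower (14.9%), where 10.8% and 8.29% of all genes were. The median log2 fold change was 0.05, close to that of all genes, with 25 positive and 22 negative. The groups did not overlap for 7 higher and 9 lower, where 15.1% and 12.8% of all genes were separated.

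The smallest p among these belonged to serpina10a, which encodes a serpin related to the protein Z-dependent inhibitor of factor Xa. Its level was 7.71, 3.33 and 3.87 CPM in mutant libraries and 20.5, 19.4 and 18.5 CPM in WT libraries (log2 fold change -1.98 ± 0.37, SE, edgeR, adjusted p = 0.0745). It was called without mutant library 1 (-2.45, edgeR adjusted p = 0.0354), without the low-count filter (-1.99, edgeR adjusted p = 0.0283) and by DESeq2 (-2.01, adjusted p = 1.32e-04). In that order, these runs called 0.372%, 0.506% and 4.34% of all genes lower. The other alternatives, limma-voom among them, called 0 genes of the wider list lower. The protein Z genes proza and prozb, chosen after their values were seen, stood at log2 fold changes of -0.45 and 0.63.

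The C4 gene c4 had 120, 37.2 and 25.7 CPM in mutant libraries and 187, 253 and 341 CPM in WT libraries (log2 fold change -2.10 ± 0.63, SE, edgeR, adjusted p = 0.158), a larger difference than in c4b. A second tissue factor gene, f3b, had 1.04, 0.575 and 0.840 CPM in mutant libraries and 1.198, 1.93 and 5.33 CPM in WT libraries (-1.78 ± 0.63, SE, edgeR, adjusted p = 0.200). The annexin anxa2a, a receptor for plasminogen and its activator in mammals, had 7.03, 10.7 and 27.4 CPM in mutant libraries and 1.05, 4.86 and 3.25 CPM in WT libraries (2.302 ± 0.70, SE, edgeR, adjusted p = 0.163).

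The factor H-like genes did not all lie on 1 side of WT. Chosen after their values were seen, cfhl2 stood at 184, 158 and 141 CPM in mutant libraries and 35.1, 67.8 and 109.5 CPM in WT libraries, above WT in each. The genes cfhl3 and cfhl5 were below WT in each mutant library, with log2 fold changes of -0.84 and -1.78 beside 1.19 for cfhl2. The lectin hbl4, related to mbl2, had 40.4, 36.2 and 13.5 CPM in mutant libraries and 94.6, 73.0 and 50.9 CPM in WT libraries, opposite in sign to mbl2 (-1.28, edgeR adjusted p = 0.208). Reads of such related copies may be shared.

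Genes of the acute phase, in which the liver raises many plasma proteins during inflammation, were read beside the set. Of 36 such genes, 27 were found and 21 passed the filter. Of these 21, 0 were called by edgeR in either direction. At an unadjusted p under 0.05, 1 was above and 2 were below WT, where 10.8% and 8.29% of all genes were. Negative values were found for 18, and the median was -0.34 beside 0.04 for all genes. The gene above WT at that p was leap2, with 11.7, 47.1 and 42.0 CPM in mutant libraries and 1.63, 0.837 and 5.50 CPM in WT libraries. Those below were crp2 and fn1a. The transcription factor genes cebpb and cebpd, which drive acute phase genes in mammals, were highest in WT library 3. They were chosen after their values were seen. Of the other genes of the list, hp, socs3a, socs3b, il6st, stat3 and irg1l were also highest in WT library 3 on the TMM scale. So were itih3b and hpxb, by a narrow margin, and crp1, which did not pass the filter. The rest of those with counts peaked elsewhere, among them hamp in mutant library 3 and hpxa and crp3 in mutant library 1. The genes saa and il1b did not pass the filter. In WT library 3, saa was at 0.112 CPM and il1b at 0.168 CPM. Their highest levels were 0.306 CPM in mutant library 1 and 0.484 CPM in mutant library 3. The level of cebpb was 35.3, 38.4 and 108 CPM in mutant libraries and 33.1, 52.5 and 434 CPM in WT libraries. That of cebpd was 25.4, 21.2 and 97.9 CPM in mutant libraries and 65.9, 84.6 and 232 CPM in WT libraries. On the TMM scale, WT library 3 held the highest level of 24 of the 39 genes of the set, among them c7b, f3a, f5, c4b and c9. Scaled to the counts outside vitellogenin, c7b, f3a and f5 stayed highest there. On that scale c4b and c9 were highest in mutant library 3, as were most genes of the set. Whether the ranks of WT library 3 are related to the levels of cebpb and cebpd was not tested. The hepatocyte markers had a median of -0.335 over 20 genes, 15 of them negative, and the 11 hepatocyte transcription factors a median of -0.04, with 0 called by edgeR in both and 1 marker, ttr, higher at an unadjusted p under 0.05.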

How the data were processed

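The authors deposited raw read counts per gene symbol for 6 liver libraries. The submitters' processing notes name featureCounts 1.5.2, STAR 2.7, Trimmomatic 0.36 and build GRCz11; no source used here gives strand use or the handling of multi-mapped reads. The row without a gene name, 0.568% to 1.02% of counts, was left out.

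Counts were filtered with filterByExpr, scaled by TMM and fitted over all genes with edgeR 4.0.16 (R 4.3.3, robust quasi-likelihood test, Benjamini-Hochberg adjustment, threshold 0.05). The SE is the size of the log2 fold change over the square root of F. Log2 deviations used a prior count of 2. The method was tested on simulated data. Alternatives included DESeq2 1.42.0 and limma-voom (limma 3.58.1), other scalings and filters, and each library left out.

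Values per library are given for the most counted gene of each role, the 8 separated members with the largest change, members of ratios, and members whose call differed between tools; from the wider list, called genes and the 4 separated with the largest change. Genes named beyond this were chosen after their values were seen. The set, the lists and the tests were chosen with earlier results of these data known.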

Additional observations from a re-analysis of the deposited data

How the results depend on the processing

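The call of 0 members in each direction held in 17 of the 18 alternatives, with 36 members tested under the filter of at least 1 CPM in 3 libraries. The exception was DESeq2's Wald test, with 1 higher and 3 lower (log2 fold changes of 2.66 for mbl2, -0.87 for c3b.1, -3.01 for c7b and -3.66 for f13b). The count over all genes, 31 in the main analysis, was 472 with total counts, 211 with no filter, 2 under the replicate block, 1085 with DESeq2, 54 with the oocyte covariate, 146 with total counts outside vitellogenin (chosen after seeing the data) and 2 to 77 with a library left out. In the wider list, 3 were called higher with total counts and 1 with DESeq2, and 1 lower without the filter, 2 with DESeq2 and 0 to 1 with a library left out.

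The list median was 0.47 with total counts, 0.00 (0.0005) with total counts outside vitellogenin, and -0.83 to -0.24 with a library left out. With total counts, where the median of all genes is 0.97, signs turned for 28 of the 39 genes. Those with values per library in the text by rule were c3a.1 (0.52), c3b.1 (0.10), c8a (0.74), c8b (0.70), c8g (0.16), c9 (0.49), cfb (0.47), f2 (0.30), fga (0.35), fgb (0.57), fgg (0.39), plg (0.16), serpinc1 (0.53), vtna (0.28) and vtnb (0.57). With total counts outside vitellogenin, 14 turned, among them c3a.1 (0.10), c8a (0.26), c8b (0.16), c9 (0.0005), cfb (0.0089), fgb (0.18), fgg (0.0271), serpinc1 (0.14) and vtnb (0.22). With a library left out, f7 ranged from -0.16 to 0.49 and f7i from -0.62 to 0.41. Leaving out 1 library also turned the sign of c3a.2, c6, c7a, f9b and serpind1.

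The labels do not say whether replicate numbers pair the libraries. Deviations of same-numbered libraries correlated at 0.30, -0.21 and 0.32. Mutant libraries 1 and 2 correlated best with a WT library of another number. The libraries are few and also differ in oocyte transcripts, so these correlations cannot decide whether the numbers mark pairs. With the replicate block 0 members were called, and f7i stood at -0.0762. The cause of these shifts was not tested. The libraries held 22525340 to 25852954 named counts each, and mbl2, c7a, f3a and f13b are the genes with the fewest.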
